A study of Mus musculus with 12 samples.

Results

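The adenine nucleotide translocase genes Slc25a4 and Slc25a5 and the uncoupling protein genes Ucp2 and Ucp3 encode related carriers of the inner mitochondrial membrane. They are 4 genes listed by name, not by a cut on their measured values, and 18193 genes had a probe set of their own on the array. The list was made with earlier results of these data known. Probe sets carried the names of 3 of the 4, with 4 probe sets for Slc25a4, 8 for Slc25a5 and 2 for Ucp3, 14 in all. Ucp2 was not analysed here, because the array annotation that was used names no probe set for it.

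RNA came from adipose tissue of C57Bl/6 mice, and the fat depot, the sex and the pooling of animals are not given. The 3 groups of 4 arrays were chow, 5 days of high-fat diet (HFD) and 14 days of HFD. Chow mice ate 13% of calories as fat throughout, and HFD mice were moved at 6 weeks of age to a diet with 46% of calories as fat. How old any group was when tissue was taken is not stated, so age and diet cannot be told apart. By its title the series concerns insulin resistance under HFD.

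Translocases exchange cytosolic ADP for ATP made in the mitochondrial matrix, and so set how fast ATP synthase is supplied with its substrate. Slc25a4 (also named Ant1) is the form of heart and skeletal muscle, while Slc25a5 (Ant2) is the form of many other tissues and of dividing cells. Translocases also carry a proton leak that fatty acids promote, which ties them to oxygen use. Uncoupling proteins are close relatives: Ucp3 is found mainly in skeletal muscle and brown fat, and Ucp2 in many tissues, immune cells included.

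By RefSeq (GRCm38.p6), Slc25a4 lies on chromosome 8 from 46207168 to 46211062, and Slc25a5 on chromosome X from 36795597 to 36798808. Ucp3 lies on chromosome 7 from 100472991 to 100486432, and Ucp2 follows it from 100493337 to 100499629, with 6904 bases and 0 annotated genes between them. Slc25a4 and Ucp3 are the genes set against muscle signal below, so the 250 bases before their annotated starts are shown, 5′ to 3′, from RefSeq (GRCm38.p6; Slc25a4 at chr8:46211063-46211312, minus strand; Ucp3 at chr7:100472741-100472990, plus strand). Capitals mark E-boxes (CANNTG, the same on both strands), the letters that muscle regulatory factors such as MyoD bind.
Slc25a4: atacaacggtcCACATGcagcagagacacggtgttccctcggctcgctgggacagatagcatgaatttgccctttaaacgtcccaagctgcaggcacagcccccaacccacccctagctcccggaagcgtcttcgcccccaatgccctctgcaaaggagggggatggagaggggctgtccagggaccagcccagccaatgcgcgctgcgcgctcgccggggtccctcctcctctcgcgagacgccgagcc
Ucp3: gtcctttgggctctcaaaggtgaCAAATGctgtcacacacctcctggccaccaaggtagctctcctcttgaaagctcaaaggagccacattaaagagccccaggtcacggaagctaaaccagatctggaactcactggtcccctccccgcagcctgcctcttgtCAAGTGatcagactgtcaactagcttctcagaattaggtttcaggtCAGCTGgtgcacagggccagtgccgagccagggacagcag
The Slc25a4 window held 1 E-box, starting at -239 from the gene's start, and the Ucp3 window 3, at -227, -86 and -40. An E-box is common: 66.2% of 32851 annotated promoter windows of the same length held at least 1. The Ucp3 window also held 2 copies of AGGTCA, the core element of PPAR and other nuclear receptors (searched on both strands), at -149 and -44, the second of which overlaps the E-box at -40. That element stood in 14.0% of all windows and in neither the Slc25a4 nor the Slc25a5 window. These matches describe letters and show no binding.

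Signals are the deposited log2 values of single-colour Affymetrix arrays, which ran from 4.178 to 15.504, with array medians between 8.09 and 8.14. A difference of 1 on this scale is a 2-fold signal, and the number of arrays sets the precision. The labels do not say whether replicates were separate animals, so p-values cover the spread between samples, which may be technical. Adipocyte markers (8 of 10 above the intensity filter) averaged 13.44 to 14.00 in all arrays. Transcripts of other tissues stood apart in some arrays. Skeletal muscle markers (14 of 17 above the filter) reached a mean of 12.11 in 5-day array 2 and of 12.37 in chow array 3, against 8.52 to 9.33 in the other 10. Epididymis markers (6 of 9) averaged 10.3 to 11.5 in 5-day arrays 1 to 3 and 12.5 in 14-day array 4, against 7.10 to 8.08 elsewhere. Liver markers (9 of 10) also varied, with means of 8.71, 8.71, 12.30 and 10.57 in chow arrays 1 to 4, of 9.79, 11.79, 9.94 and 13.37 in 5-day arrays 1 to 4, and of 12.99, 9.54, 11.84 and 9.50 in 14-day arrays 1 to 4. In bulk tissue, fewer cells of a type and less RNA per cell cannot be told apart.

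Both translocases gave some of the brightest signals on the array. Averaged over all 12 arrays, the main probe set (the one with the highest mean) of Slc25a5 stood at the 99.1st percentile of probe sets, that of Slc25a4 at the 98.7th and that of Ucp3 at the 75.4th. Each such signal describes its own probes, and levels of different genes are not compared. The 4 probe sets of Slc25a4 averaged 13.27, 13.04, 12.92 and 6.50, the last under the filter value of 7.64. The 8 probe sets of Slc25a5 averaged 10.89 to 13.62. Those of Ucp3 averaged 9.62 and 9.52. Of the 14, 7 carry the suffix that marks probes shared with other sequences, 6 of them on Slc25a5. The main Slc25a5 probe set is among these. Cross-reading between the related carriers or their pseudogenes was not tested.

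Among the main probe sets, that of Slc25a5, the translocase of most tissues, varied least within diets. Its residual SD was 0.076, against 0.097 for Slc25a4 and 0.178 for Ucp3. This order depends on the probe set. The Slc25a5 probe set of mean 11.44 had SDs of 0.076, 0.058 and 0.316 in chow, 5-day and 14-day arrays. Those of the main Ucp3 probe set were 0.174, 0.053 and 0.249. The main Slc25a5 probe set read 13.66, 13.57, 13.55 and 13.57 in chow arrays 1 to 4. It read 13.68, 13.64, 13.65 and 13.68 in 5-day arrays 1 to 4, and 13.60, 13.52, 13.78 and 13.53 in 14-day arrays 1 to 4. The 5-day arrays lay close together and above chow arrays 2 to 4, while chow array 1 lay inside the 5-day range. The 14-day arrays held both the highest and the lowest values of the set.

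Slc25a4, the muscle and heart form, read 13.26, 13.18, 13.25 and 13.30 in chow arrays 1 to 4. It read 13.29, 13.21, 13.30 and 13.17 in 5-day arrays 1 to 4. It read 13.37, 13.13, 13.48 and 13.35 in 14-day arrays 1 to 4. Of the 14-day arrays, 3 lay above every chow array and the other lay below every chow array, so the groups overlapped.

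Ucp3, whose transport role is still debated, read 9.71, 9.76, 9.66 and 9.37 in chow arrays 1 to 4. It read 9.58, 9.60, 9.68 and 9.56 in 5-day arrays 1 to 4, all inside the chow range. It read 9.88, 9.71, 9.66 and 9.29 in 14-day arrays 1 to 4, the widest spread of the 3 groups.

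**Figure D1:**
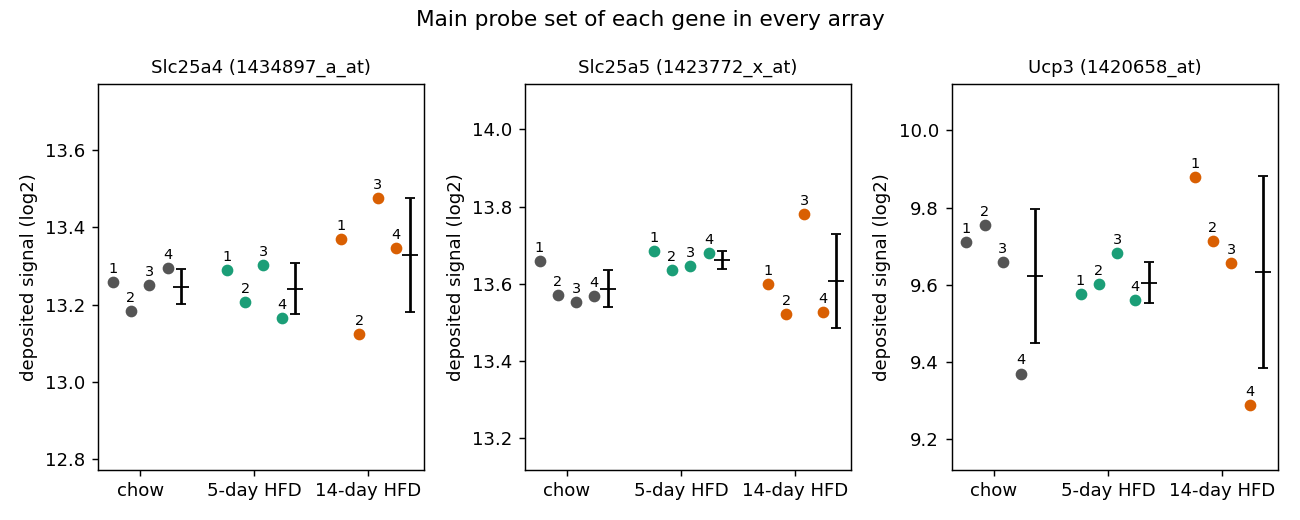
Deposited log2 signal of the main probe set of Slc25a4, Slc25a5 and Ucp3 in each of 12 arrays, numbered by replicate, with the mean and SD of each group of 4 in black; every panel spans 1 log2 unit. For each gene the groups overlap, and the 14-day group spreads most.

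After 5 days of HFD none of the 3 genes differed from chow beyond the spread of the arrays. Slc25a5 averaged 13.66 ± 0.02 after 5 days and 13.59 ± 0.05 in chow (SD, n = 4 each), a log2 difference of 0.07 ± 0.06 (SE), or 1.05-fold. Its 95% interval ran from 0.963-fold to 1.15-fold. Slc25a4 averaged 13.24 ± 0.07 after 5 days and 13.25 ± 0.05 in chow, a difference of -0.0053 ± 0.07, with an interval from 0.895-fold to 1.11-fold. Ucp3 averaged 9.61 ± 0.05 after 5 days and 9.62 ± 0.17 in chow, a difference of -0.019 ± 0.12, with an interval from 0.823-fold to 1.18-fold.

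By limma with Benjamini-Hochberg adjustment over 13312 genes the adjusted p was 0.715 for Slc25a5, 0.986 for Slc25a4 and 0.970 for Ucp3. Of all genes tested limma called 0 (0%) at an adjusted p under 0.05, with 1345 (10.1%; 4.43% higher and 5.67% lower) at an unadjusted p under 0.05, against 0 of the 3. A two-sided exact permutation test gave p = 0.0857 for Slc25a5 (adjusted p = 0.771 over the 9 tests of 3 genes in 3 comparisons), where the smallest p that 4 arrays against 4 allow is 0.0286. In 14 of 16 pairings of a 5-day array with a chow array Slc25a5 was higher after 5 days. The groups of 0 of the 3 genes were free of overlap, against 11.3% of all genes (6.49% higher and 4.77% lower). As each array was left out in turn, the Slc25a5 difference ran from 0.063 to 0.097. It was highest without chow array 1 (limma adjusted p = 0.686).

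At the other probe sets of Slc25a5 the 5-day difference pointed the same way. It was above 0 at 8 of 8 probe sets, from 0.039 to 0.13, and 0 of these passed, with a lowest adjusted p of 0.802 in the limma fit of all probe sets. The 8 probe sets read the same RNA and are not separate replicates. Slc25a4 was above 0 at 3 of 4, from -0.0053 to 0.022 at the 3 probe sets above the filter and at 0.11 at the one under it, and Ucp3 at 1 of 2.

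After 14 days of HFD the 3 genes also stayed within the spread. Slc25a4 averaged 13.33 ± 0.15 after 14 days and 13.25 ± 0.05 in chow, a difference of 0.08 ± 0.07 (limma adjusted p = 0.806) with an interval from 0.951-fold to 1.18-fold. Slc25a5 averaged 13.61 ± 0.12 after 14 days and 13.59 ± 0.05 in chow, a difference of 0.02 ± 0.06 (limma adjusted p = 0.948). Ucp3 averaged 9.63 ± 0.25 after 14 days and 9.62 ± 0.17 in chow, a difference of 0.01 ± 0.12 (limma adjusted p = 0.987), with an interval from 0.840-fold to 1.21-fold. Limma called 0 of 13312 genes (0%), with 1061 (7.97%; 3.67% higher and 4.3% lower) at an unadjusted p under 0.05, against 0 of the 3. The groups of 0 of the 3 genes were free of overlap, against 4.63% of all genes (2.37% higher and 2.26% lower).

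Slc25a4 was above chow after 14 days at 4 of 4 probe sets, from 0.049 to 0.082 at the 3 above the filter and at 0.19 at the one under it, with 0 passing. Single arrays set the sizes: the main difference was 0.033 without 14-day array 3 and 0.15 without 14-day array 2. The Slc25a5 difference was -0.039 without 14-day array 3. The Ucp3 difference was 0.13 without 14-day array 4, -0.071 without 14-day array 1 and -0.074 without chow array 4, and with array weights it was 0.19 ± 0.09 (limma adjusted p = 0.142). Exact permutation p-values were 0.343 for Slc25a4, 0.857 for Slc25a5 and 0.971 for Ucp3. This comparison and the one at 5 days share the chow arrays.

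Between 14 and 5 days of HFD the translocases pointed in opposite directions, neither beyond the spread. Slc25a4 differed by 0.0875 ± 0.07, at 13.33 ± 0.15 after 14 days and 13.24 ± 0.07 after 5 days, and Slc25a5 by -0.055 ± 0.06, at 13.61 ± 0.12 after 14 days and 13.66 ± 0.02 after 5 days (SD, n = 4 each). Ucp3 differed by 0.03 ± 0.12. All 3 had a limma adjusted p of 0.999, and exact permutation p-values were 0.314, 0.371 and 0.8 in that order. Single arrays set these sizes too. Slc25a4 stood at 0.039 without 14-day array 3 and at 0.16 without 14-day array 2, Slc25a5 at -0.11 without 14-day array 3 and at -0.026 without 14-day array 2, and Ucp3 at 0.14 without 14-day array 4 and at -0.053 without 14-day array 1. Slc25a4 was above 0 at 4 of 4 probe sets and Slc25a5 at 1 of 8. Limma called 0 genes (0%), with 340 (2.55%; 1.77% higher and 0.789% lower) at an unadjusted p under 0.05, against 0 of the 3. Groups were free of overlap for 0.924% of all genes (0.646% higher and 0.278% lower), against 0 of the 3.

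**Figure D2:**
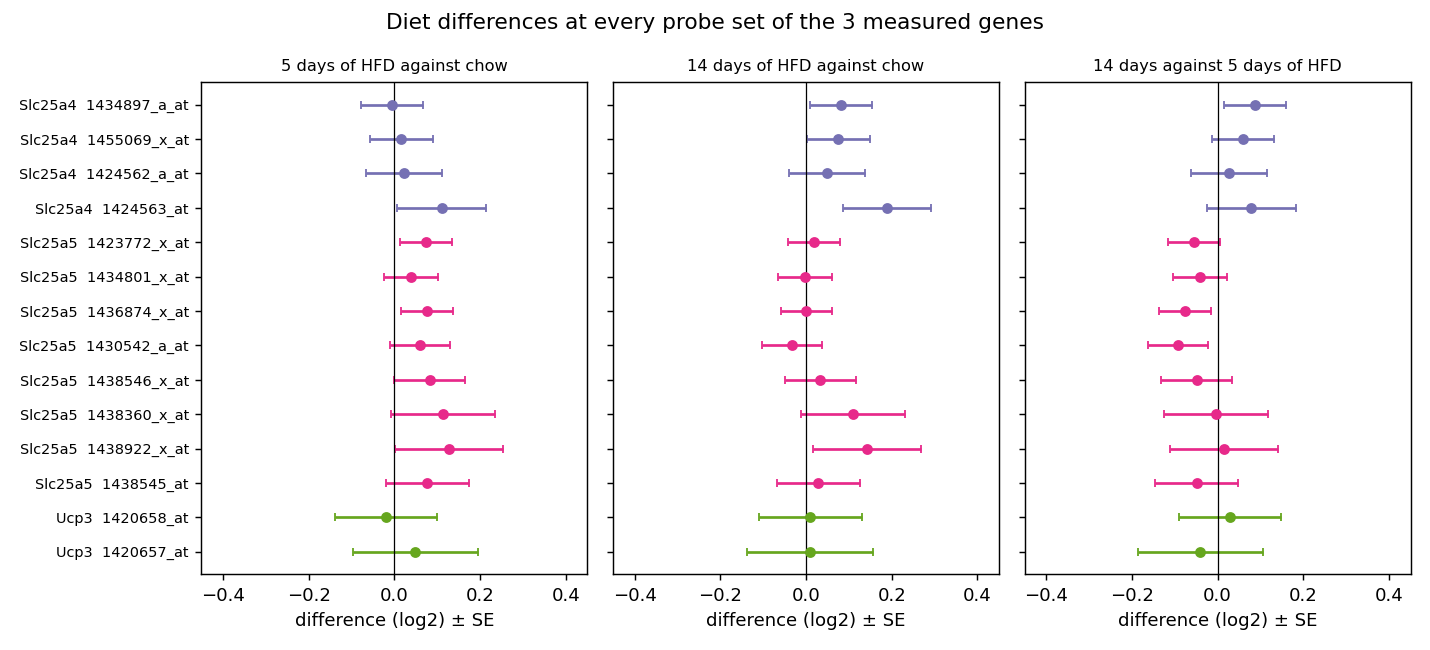
Log2 difference (points) and its standard error (bars) from the limma fit of all probe sets, for the 14 probe sets of the 3 genes in each comparison. Slc25a5 lies right of 0 at all 8 probe sets at 5 days against chow, and no probe set passes the adjusted test.

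At all 14 probe sets the SD was largest in the 14-day group, as it was for 59.2% of all genes. 14-day array 3 read highest of all 12 arrays at 4 of 4 Slc25a4 probe sets and at 7 of 8 Slc25a5 probe sets. Among Slc25a5 probe sets the widest range was at the one of mean 11.44, which read 11.92 in 14-day array 3 and 11.24 in 14-day array 4. Ucp3 read lowest in 14-day array 4 and highest in 14-day array 1 at both of its probe sets. The one that is not the main one, with 9.06 and 9.80 there, had the widest range of all 14, at 0.739.

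Of these, 14-day array 4 stood apart in several cell type markers. Its adipocyte marker mean was 13.44, against 13.80 to 14.00 in the other 11 arrays. In 14-day array 4 macrophage markers (12 of 12 above the filter) averaged 9.78, against 10.55 to 11.17 elsewhere, and smooth muscle markers (8 of 8) averaged 13.2, against 9.65 to 11.7 elsewhere. In 14-day arrays 1 and 3, where Ucp3 and the translocases read highest, the adipocyte means were 13.99 and 14.00 and the liver means 12.99 and 11.84, against liver means of 9.54 and 9.50 in 14-day arrays 2 and 4. The highest liver mean of all, 13.37, was in 5-day array 4. There the main probe sets of Slc25a4 (13.17) and Ucp3 (9.56) read lowest of the 5-day arrays, while the other Ucp3 probe set (9.79) read highest of them. The part of these markers in the translocase and Ucp3 values was not tested.

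**Figure D3:**
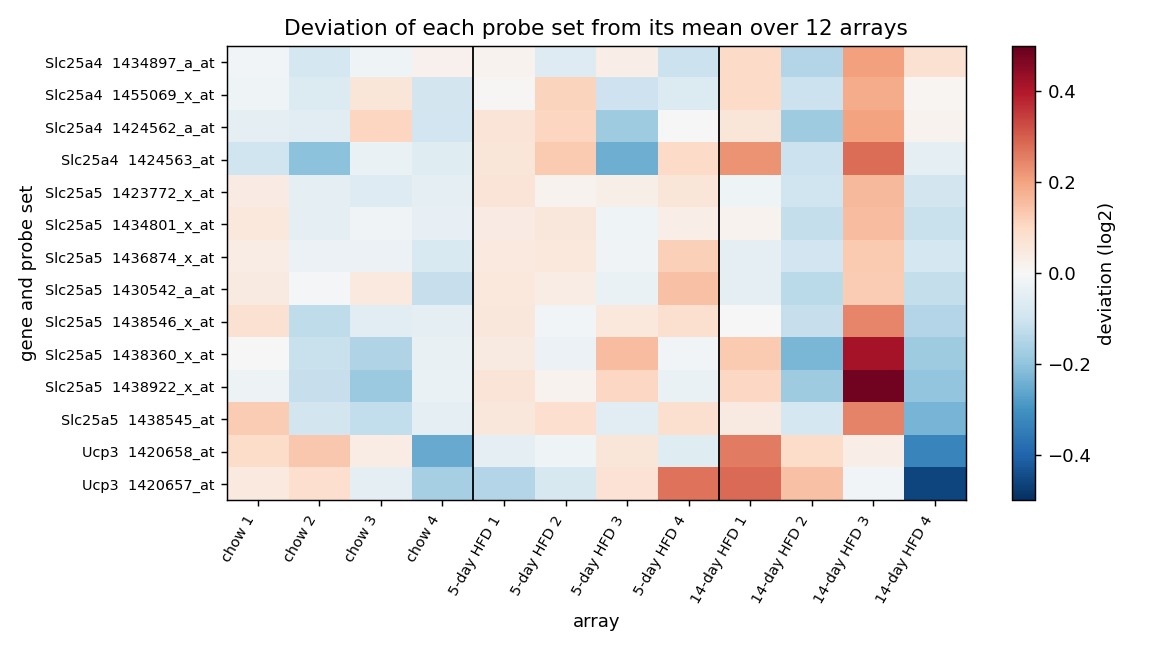
Deviation of each of 14 probe sets (rows) from its own mean over the 12 arrays (columns), in log2 units, with diets parted by black lines. Slc25a4 and Slc25a5 are high together in 14-day array 3, and both Ucp3 probe sets are low in 14-day array 4.

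Skeletal muscle carries Slc25a4 and Ucp3 in the body, so both were set against Mylpf, the gene of a fast skeletal muscle myosin light chain. Mylpf read 7.10, 6.93, 12.42 and 7.34 in chow arrays 1 to 4. It read 7.75, 11.84, 7.65 and 8.56 in 5-day arrays 1 to 4, and 7.24 to 7.38 in the 14-day arrays. Chow array 3 and 5-day array 2 thus formed a cluster of their own, since the gap of 3.28 below them is 59.7% of the whole range, and no correlation over all 12 arrays is given.

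In those 2 arrays the muscle genes were high. The probe sets of the 3 members lay between -0.145 and 0.175 of the mean of the other arrays of their diet. A log2 difference also depends on the starting level, as a given added signal moves a bright probe set less than a dim one. In the other chow arrays the Slc25a4 probe set of mean 12.92 read 12.82 to 12.87, against 5.17 to 5.33 for Ckmt2. How much Slc25a4 signal muscle RNA added was not tested. The 2 arrays were also high in liver markers, at 11.79 in 5-day array 2 and 12.30 in chow array 3, and the part of these in the values was not tested. The muscle creatine kinase gene Ckm was higher by 4.91 in chow array 3 and by 3.56 in 5-day array 2 on the log2 scale. Ckmt2, the mitochondrial creatine kinase of muscle that takes up ATP exported by the translocase, read 8.48 in 5-day array 2 and 8.89 in chow array 3, against 5.17 to 5.56 in the other arrays of both diets, which is under the filter value. The myoglobin gene Mb was 6.70-fold higher in chow array 3 and 4.25-fold higher in 5-day array 2. Cox6a2, the muscle form of a cytochrome oxidase subunit, was 3.31-fold higher in chow array 3 and 2.35-fold higher in 5-day array 2.

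Against these, the main probe set of Slc25a4 differed by 0.0053 in chow array 3 and by -0.045 in 5-day array 2 on the log2 scale, and both values lay inside the range of their diet. The other 3 Slc25a4 probe sets read highest of their diet in both arrays. The probe set of mean 12.92 read 13.02 in chow array 3, against 12.82 to 12.87 in the other chow arrays, and 13.02 in 5-day array 2, against 12.74 to 12.98 in the other 5-day arrays. Its differences were 0.17 and 0.14, those of the probe set of mean 13.04 were 0.12 and 0.17, and those of the dim one of mean 6.50 were 0.087 and 0.16. The choice of probe set therefore decides whether Slc25a4 stood above its diet group in the arrays of high Mylpf. These are values of 2 arrays, with no test.

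Ucp3 stood inside the range of its diet in both arrays at both probe sets. Its main probe set differed by 0.047 in chow array 3 and by -0.0053 in 5-day array 2, and the other probe set by -0.038 and -0.14. Slc25a5, set beside them, differed at its main probe set by -0.045 and -0.034. Other carriers were mixed: Slc25a12, a carrier of aspartate and glutamate, differed by 0.47 and 0.17, and Slc25a3, which imports phosphate for ATP synthesis, by 0.023 and 0.025. The fatty acid binding protein gene Fabp3, active in muscle, differed by 1.44 and 1.45.

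**Figure D4:**
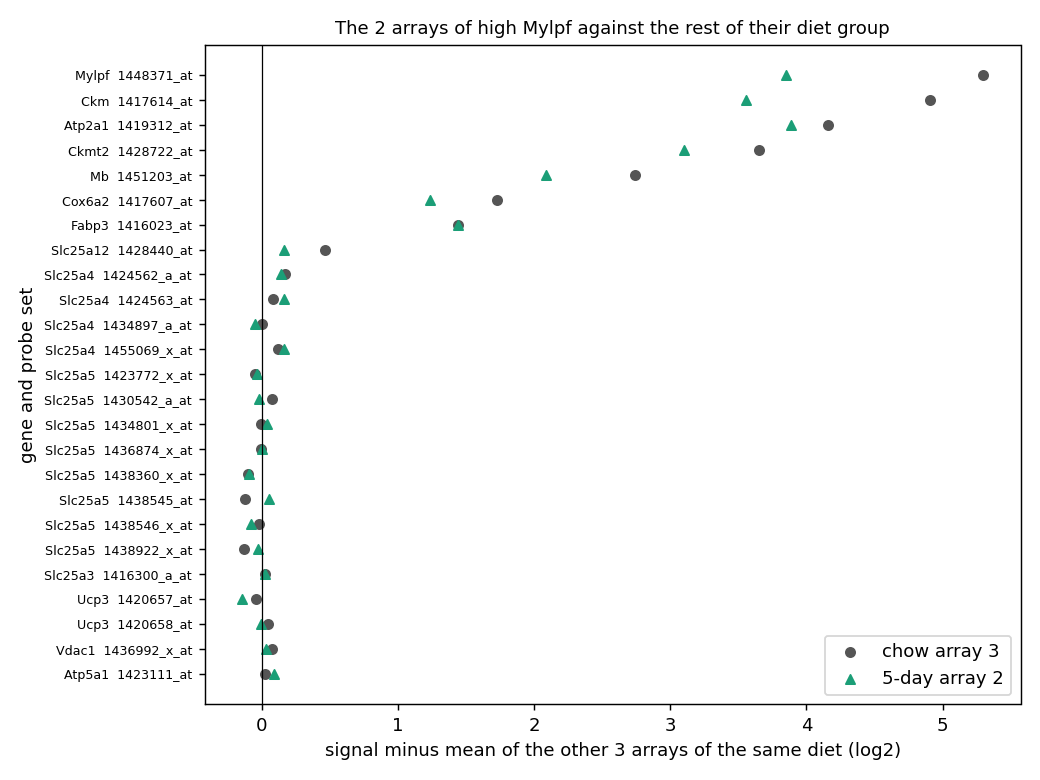
Log2 signal of chow array 3 (circles) and 5-day array 2 (triangles) minus the mean of the other 3 arrays of the same diet, by gene and probe set. Muscle genes from Mylpf to Fabp3 lie between 1.235 and 5.30, and the probe sets of Slc25a4, Slc25a5 and Ucp3 lie between -0.145 and 0.175.

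Within the 10 arrays of low Mylpf no relation was detectable, but 7 of these 10 Mylpf values lay under the filter value of 7.64, so the correlations run largely on dim signal. Slc25a4 had Pearson r = -0.26 (two-sided permutation test with 100000 resamples, p = 0.463, adjusted p = 0.577 over 3 genes) and Spearman rho = -0.22 (permutation p = 0.537). Ucp3 had r = -0.19 (permutation p = 0.577, adjusted p = 0.577) and rho = -0.47 (permutation p = 0.176). Slc25a5 had r = 0.35 (permutation p = 0.331, adjusted p = 0.577) and rho = 0.27 (permutation p = 0.449). Without the 2 arrays farthest from the median of Mylpf, r was 0.21 for Slc25a4, -0.16 for Ucp3 and 0.12 for Slc25a5. The sign for Slc25a4 thus rested on 1 or 2 arrays, and without 5-day array 4 alone it was 0.15. For Ucp3 the other probe set gave r = 0.27. Within diet groups, as deviations from the group means, r was -0.32, -0.29 and 0.039 for Slc25a4, Ucp3 and Slc25a5.

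**Figure D5:**
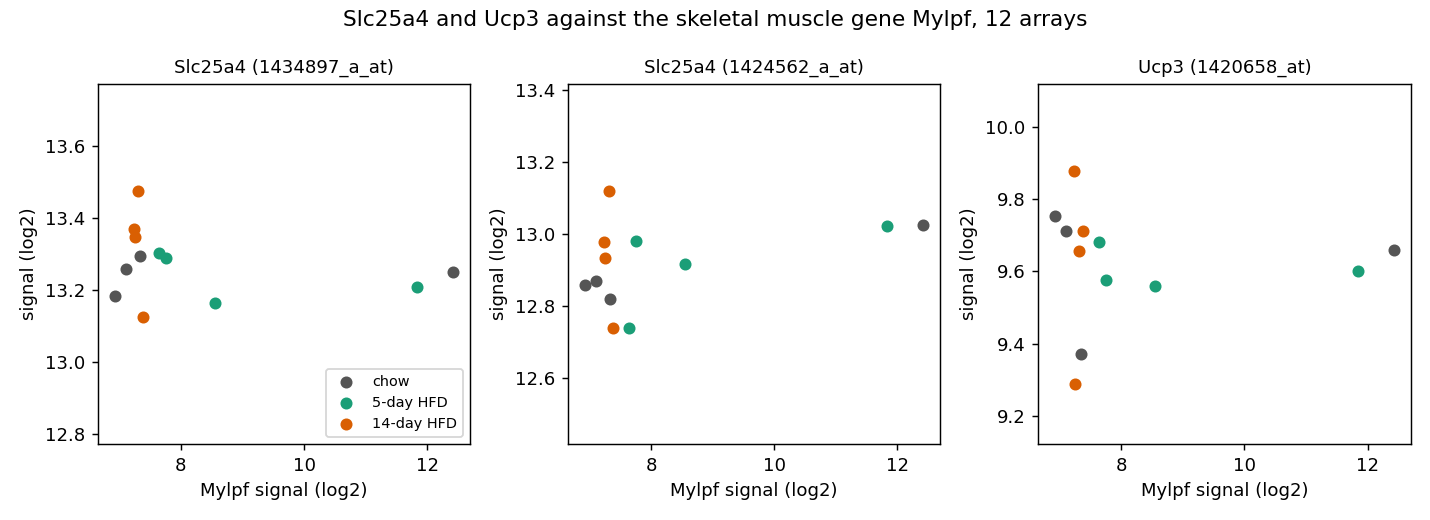
Log2 signal of the main Slc25a4 probe set, of the Slc25a4 probe set of mean 12.92 and of the main Ucp3 probe set (vertical axes, each spanning 1 log2 unit) against Mylpf (horizontal axes) in 12 arrays coloured by diet. The 2 arrays at the right, of Mylpf 11.84 and 12.42, lie among the other arrays in the first and last panels and toward the top in the middle one.

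With Mylpf as a covariate in limma the diet differences hardly moved. At 5 days against chow they were 0.078 ± 0.06 for Slc25a5, -0.0025 ± 0.07 for Slc25a4 and -0.020 ± 0.13 for Ucp3 (adjusted p of 0.729, 0.994 and 0.973). At 14 days against chow Slc25a4 stood at 0.076 ± 0.08, with adjusted p = 0.925. Without both arrays of high Mylpf the 5-day difference was 0.071 for Slc25a5, 0.0073 for Slc25a4 and -0.0057 for Ucp3.

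The other mitochondrial carriers of the SLC25 family were a mixed set after 5 days. Of 35 listed, 34 had a probe set and 32 passed the filter; 16 were above and 16 below chow, with a median of 0.0026, against -0.0015 for all genes. Limma called 0 of them. The dicarboxylate carrier Slc25a10 read 12.67, 12.58, 12.73 and 12.83 in 5-day arrays, against 12.33, 11.83, 11.90 and 11.89 in chow arrays, a difference of 0.71 ± 0.22 (adjusted p = 0.347). All 5-day arrays lay above all chow arrays, as they did for 6.49% of all genes. Slc25a35 differed by 0.57 ± 0.16, with 5-day arrays from 9.99 to 10.10 and chow arrays from 9.26 to 9.73. Lower values belonged to Slc25a37, which brings iron into mitochondria (-0.33 ± 0.11), and to the coenzyme A carrier Slc25a42 (-0.37 ± 0.14). After 14 days 17 of 32 were above chow, with Slc25a37 at -0.43 ± 0.11 and Slc25a35 at 0.45 ± 0.16, and 0 passed.

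ATP synthase, the enzyme that the translocases serve, had 19 of 19 listed genes above the filter. The list counts Atpif1, the gene of an inhibitor of the enzyme. Atpif1 differed from chow by 0.54 ± 0.34 at 5 days and 0.41 ± 0.34 at 14 days. After 5 days 15 of the 19 were above chow, with a median of 0.051, and after 14 days 16, with a median of 0.060, against medians of -0.0015 and 0.016 for all genes. Limma called 0 in each comparison. The epsilon subunit gene Atp5e differed by 0.16 ± 0.07 at 5 days (adjusted p = 0.489), and the delta subunit gene Atp5d by 0.13 ± 0.05 at 14 days (adjusted p = 0.580). Dmac2l, which couples parts of the enzyme, differed by -0.15 ± 0.07 at 5 days against chow and by 0.23 ± 0.07 at 14 against 5 days. These counts carry no test of the list.

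Partners of nucleotide exchange, such as the outer membrane channels, hexokinases and adenylate kinases, numbered 9 above the filter of 12 listed. Of these 6 were above chow after 5 days and 7 after 14 days, with 0 called. Their medians were 0.0505 after 5 days and 0.077 after 14 days, against -0.0015 and 0.016 for all genes. Of all genes, 49.5% were above chow after 5 days and 55.2% after 14 days. The channel gene Vdac1 differed by 0.0088 ± 0.07 at 5 days and 0.12 ± 0.07 at 14 days, and hexokinase 2 (Hk2) by 0.050 ± 0.07 and 0.15 ± 0.07. Tspo, among those below chow, differed by -0.13 ± 0.13 at 5 days and -0.19 ± 0.13 at 14 days. Ckmt2 was under the filter.

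Fatty acids act on uncoupling protein genes through PPAR receptors, and 10 of 12 genes listed with that response were tested. The list also holds the receptors Ppara and Ppard and the coactivators Ppargc1a and Ppargc1b. Its counts and medians therefore do not describe response genes alone. After 5 days 4 of the 10 were above and 6 below chow, with 0 called and a median of -0.21, against -0.0015 for all genes. Pdk4, which restrains pyruvate oxidation, differed by 0.33 ± 0.12 (adjusted p = 0.391). Ppargc1a, a coactivator of mitochondrial genes, read 8.14, 7.94, 7.79 and 8.05 in 5-day arrays, against 8.09, 8.90, 8.72 and 8.67 in chow arrays, a difference of -0.62 ± 0.21 (adjusted p = 0.382). Its relative Ppargc1b differed by -0.36 ± 0.15. After 14 days 5 were above chow, with a median of 0.012, against 0.016 for all genes, and Ppargc1a differed by -0.38 ± 0.21. Of the 7 listed genes of HIF-1 and its regulators, 4 were above chow after 5 days and 5 after 14 days, with 0 called. Their medians were 0.0655 after 5 days and 0.0805 after 14 days, against -0.0015 and 0.016 for all genes. Hif1a itself differed by 0.086 ± 0.07 at 5 days and 0.13 ± 0.07 at 14 days. Epas1 differed by -0.17 ± 0.10 at both times, and Arnt by -0.082 ± 0.07 at 5 days and -0.098 ± 0.07 at 14 days. Of the regulators, Vhl differed by 0.22 ± 0.14 and Hif1an by 0.18 ± 0.09 at 5 days.

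The genes whose deviations from the diet group means most resembled each member were named by their correlation over 12 arrays, as a description with no test. For Slc25a5 they were Tlcd1 (r = 0.961), Slc25a10 (0.959), the sterol synthesis gene Nsdhl (0.954), Prelid3b (0.944) and Ran (0.943). Over the 10 arrays of low Mylpf they were Tlcd1 (0.977), the fatty acid synthase gene Fasn (0.977), Nsdhl, Slc25a35 and Prelid3b (0.961). For Slc25a4 they were the proteasome subunit gene Psma2 (0.948), Ube2e1, Wipi1, Mpi and Swi5 (0.919). For Ucp3 they were Cgnl1 (0.919), Vars2, 1700037H04Rik, the ATP-magnesium and phosphate carrier Slc25a25 (0.912) and Gm15050 (0.909). Over the 10 arrays of low Mylpf the genes nearest to Slc25a4 were Rac3 (r = 0.983), Wipi1, Psma2, Jph1 (0.960) and Ciao2a. Jph1, which encodes a junctophilin of skeletal muscle, had r = 0.62 with Slc25a4 over the 12 arrays. Those nearest to Ucp3 over the 10 arrays were Syt14 (0.957), Rwdd2a, Trim16, Fahd1 and Vars2 (0.938). The points of all these genes share their arrays. Among the members, r was 0.63 between both translocases, 0.23 between Slc25a5 and Ucp3 and -0.14 between Slc25a4 and Ucp3.

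Of the nearest relatives, the brown fat uncoupling protein gene Ucp1 read 6.91 to 7.35 and the testis translocase gene Slc25a31 4.81 to 4.99 in all arrays, both under the filter. Brown and beige adipocyte markers (5 of 9 above the filter) ran from 8.77 to 9.41 over the 12 arrays.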

How the data were processed

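Each of 12 adipose RNA samples was read on its own Affymetrix array, per the labels' protocols. The authors deposited 1 table of 45098 probe sets in log2 units, judged from the values; how they summarised probes and normalized arrays is not given in the sources used here. Nothing was renormalized.

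Probe sets were named by the platform annotation (34945 with 1 gene, 932 with several and not used, 9160 with none). Each gene was represented by its probe set of highest mean, and 13312 genes whose mean reached 7.64, the 40th percentile over probe sets, were kept. One limma model (version 3.58.1, R version 4.3.3) held all 3 groups (eBayes with trend), with a threshold of 0.05 on the Benjamini-Hochberg adjusted p. Permutation tests used SciPy 1.17.1; exact tests went over the 70 labelings of 8 arrays. All tests were two-sided. The fit was also run on simulated data with planted differences larger than any seen for the members. That run does not bear on differences as small as theirs, and its outcome is not given here.

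Members, lists and settings were chosen with earlier results of these data known. Named list genes were the 2 of smallest p in each direction per list and comparison, of which the text gives part. For each member the 5 genes of highest correlation were named too. Other genes stand beside that rule and were chosen after their values were seen. They are Slc25a3, Slc25a12, Ckm, Ckmt2, Mb, Cox6a2 and Fabp3, as values of the arrays of high Mylpf, and Ucp1 and Slc25a31. Vdac1, Hk2, Hif1a and Atpif1 also belong to them where outside that rule. Ucp2 was not analysed here.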

Additional observations from a re-analysis of the deposited data

Results flagged for a closer look

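Of 48 groups of 4 arrays (the 14 probe sets of the 3 genes, Mylpf and Acta1 in 3 diets), 3 held an array whose gap to its nearest neighbour, divided by the range of the group, was above Dixon's critical value for 4 samples. Chance flags about 1 group in 20. The main Slc25a5 probe set read 13.658 in chow array 1, above the other chow arrays, with a gap of 0.837 of the range. Mylpf read 12.422 in chow array 3, with a gap of 0.925 of the range. Acta1, the skeletal muscle actin gene, read 14.116 in the same array, with a gap of 0.907 of the range.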

How the results depend on the processing

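No member passed in any comparison under any of 258 alternative values, single arrays left out included; the lowest adjusted p was 0.0638, for Slc25a4 at 14 days against chow with array weights (0.13 ± 0.05). Differences near 0 turned sign, as the 16 that follow, while the other 134 outside the fits that left out an array kept theirs. Slc25a4 at 5 days against chow stood at 0.0085 in median-centred arrays, 0.036 as the mean of its probe sets, 0.028 with array weights, 0.0073 without both arrays of high Mylpf, and 0.016, 0.022 and 0.11 at its other probe sets. Ucp3 at 5 days against chow stood at 0.015 as the mean of its probe sets and 0.049 at its other probe set. Ucp3 at 14 against 5 days stood at -0.0056 and -0.040 in that order, and at 14 days against chow at -0.0037 in quantile-normalized arrays. Slc25a5 at 14 days against chow stood at -0.0084 in quantile-normalized arrays and at -0.0025 and -0.033 at its probe sets of mean 13.58 and 13.03, and at 14 against 5 days at 0.015 at its probe set of mean 11.44. The cause was not tested.

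As each array was left out in turn, Slc25a4 ran from -0.026 to 0.020, from 0.033 to 0.15 and from 0.039 to 0.16 in the comparisons of 5 days with chow, 14 days with chow and 14 with 5 days. Slc25a5 ran from 0.063 to 0.097, from -0.039 to 0.048 and from -0.11 to -0.026, and Ucp3 from -0.10 to 0.025, from -0.074 to 0.13 and from -0.053 to 0.14. The correlation with Mylpf ran from -0.45 to 0.15 for Slc25a4, from 0.28 to 0.58 for Slc25a5 and from -0.39 to -0.098 for Ucp3. It turned sign for Slc25a4 with Acta1 in place of Mylpf (0.11), without the 2 farthest arrays (0.21) and at 2 other probe sets (0.024 and 0.22), for Slc25a5 with Acta1 (-0.20), and for Ucp3 at its other probe set (0.27).

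Counts of all genes called, 0 in each comparison, were 2015, 2981 and 2212 with array weights, 213 at 5 days with only the groups compared and 2 at 5 days with Mylpf as a covariate. Leaving out 1 array gave 0 to 123 at 5 days (123 without 14-day array 4, an array outside that comparison), 0 to 20 at 14 days (20 without 14-day array 2) and 0 at 14 against 5 days.

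Replicate numbers did not pair the arrays: deviations of same-numbered arrays correlated above 0.1 in 2 of 12 pairs (-0.73 to 0.41), and the best match in another group had the same number in 2 of 24 cases. With the replicate block 0 genes were called in each comparison, and Slc25a5 at 5 days stood at 0.07 ± 0.06 (adjusted p = 0.781).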

Other observations

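Hexokinase 1 (Hk1), which binds the outer mitochondrial membrane and uses exported ATP, read 10.74, 10.69, 10.82 and 10.57 in 5-day arrays, against 10.03, 10.27, 10.27 and 10.34 in chow arrays, a difference of 0.48 ± 0.25 (limma adjusted p = 0.551). It read 10.16, 10.36, 10.05 and 11.48 in 14-day arrays. All 5-day arrays lay above all chow arrays, as for 6.49% of all genes, and 14-day array 4 lay above every other array. That array also held the highest smooth muscle (13.2) and epididymis (12.5) marker means. In 5-day arrays 1 to 4 the epididymis means were 10.31, 10.51, 11.48 and 7.10 and the smooth muscle means 11.69, 11.62, 9.88 and 10.25, against 7.21 to 8.08 and 9.88 to 10.33 in chow arrays. The part of these markers in the Hk1 values and in the 5-day difference was not tested.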
